A study of Mus musculus with 24 samples.

Results

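The 9 genes described here make, break and regulate glycogen in the liver. They were taken by symbol (Ppp1r3b, Ppp1r3c, Ppp1r3d, Ppp1r3g, Gys2, Pygl, Gbe1, Gyg and Phka2) from 54532 gene rows of a bulk RNA-seq count table. The choice rests partly on measured values, since Ppp1r3b and Ppp1r3c were already known to be low in the livers labelled DKO. For that reason every comparison that contains DKO livers is described here without a test. The tests are kept for comparisons of the other genotypes, where members were not picked by that contrast, though those against ff;ff use the same control livers as DKO against ff;ff.

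The livers came from 24 male C57BL/6J mice aged 8 to 10 weeks and fasted for 24 h, with 4 separate mice in each of 6 groups. Rab30KO mice lack Rab30, a small GTPase of the Golgi, in the whole body, and Rab30 Ctrl are their wildtype littermates. Rab30L-/- and Cpt2L-/- mice carry floxed Rab30 or floxed Cpt2, and DKO mice carry both, in each case with Cre driven by the albumin promoter, which acts in hepatocytes. Cpt2, carnitine palmitoyltransferase 2, is required for long chain fatty acids to be oxidised in mitochondria. The ff;ff mice carry both floxed alleles without Cre and are littermates of DKO mice only, so that the controls of Rab30L-/- and Cpt2L-/- livers are not their littermates. Total counts per library ran from 11801027 to 24497738. Counts over the whole Rab30 and Cpt2 genes followed the labelled deletions only in part. Rab30 gave 5.39 to 17.4 CPM (reads of a gene relative to the TMM-scaled size of its library) in Rab30KO livers and 6.64 to 30.1 in Rab30 Ctrl. It was at 25.9 to 44.6 CPM in ff;ff, at 10.4 to 26.6 in Rab30L-/-, at 122 to 188 in Cpt2L-/- and at 101 to 231 in DKO livers, so that it was high in the DKO livers although their label names a Rab30 deletion (log2 fold change of 2.13 against ff;ff, SE 0.28). Cpt2 gave 95.3 to 167 CPM in Cpt2L-/- livers, 128 to 139 in ff;ff, 96.1 to 120.0 in DKO and 170 to 268 in Rab30L-/-. Where the labels name a deletion, Rab30 was at -0.34 in Rab30KO against Rab30 Ctrl (log2 fold change, edgeR adjusted p = 0.9999). In Rab30L-/- against ff;ff it was at -1.10 (edgeR adjusted p = 0.174). Cpt2 was at -0.07 in Cpt2L-/- against ff;ff (edgeR adjusted p = 0.788) and at -0.80 against Rab30L-/- (0.00494). In DKO against ff;ff, Cpt2 was at -0.34 (SE 0.13). These counts take in exons outside the deleted part and do not check the labels, so a group name below stands for its label. Hepatocyte markers were abundant in every liver, and the skeletal muscle markers Ckm, Acta1 and Myh4 were at or near 0, as summed muscle marker levels stayed at or below 2.12 CPM.

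Glycogen is a branched glucose polymer that hepatocytes build after a meal and break down to feed blood glucose during a fast. Glycogenin (Gyg) primes the chain, glycogen synthase (Gys2 in liver) extends it, and the branching enzyme (Gbe1) adds branch points. Glycogen phosphorylase (Pygl in liver) releases glucose units, after phosphorylase kinase (whose liver regulatory subunit is Phka2) has switched it on. Protein phosphatase 1 opposes that switch and activates the synthase, and the Ppp1r3 proteins hold it at the glycogen particle: Ppp1r3b is the main hepatic subunit, Ppp1r3c is also called PTG, and Ppp1r3d and Ppp1r3g are further members of the family.

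Of the 9 genes, those that differed most in Cpt2L-/- livers were targeting subunits. Ppp1r3b was 9.95-fold and Ppp1r3c 9.69-fold lower in Cpt2L-/- than in ff;ff livers, Pygl was 2.38-fold lower, and Gyg was 2.16-fold higher. Ppp1r3g was 10.8-fold higher in Cpt2L-/- than in Rab30L-/- livers, a call that was lost in a fit of all 24 libraries (edgeR adjusted p = 0.0715). Against ff;ff livers, 1 of which was far above the rest, Ppp1r3g was not called (log2 fold change -0.39, edgeR adjusted p = 0.896). A gene is called changed below when its adjusted p from edgeR's quasi-likelihood test (Benjamini-Hochberg adjustment over all genes tested) was under 0.05 and its fold change was at least 1.2. Ppp1r3d did not pass the filter on low counts in any comparison, so 8 of the 9 members were tested. In bulk liver RNA, fewer cells of a type and less RNA per cell cannot be told apart.

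**Figure D1:**
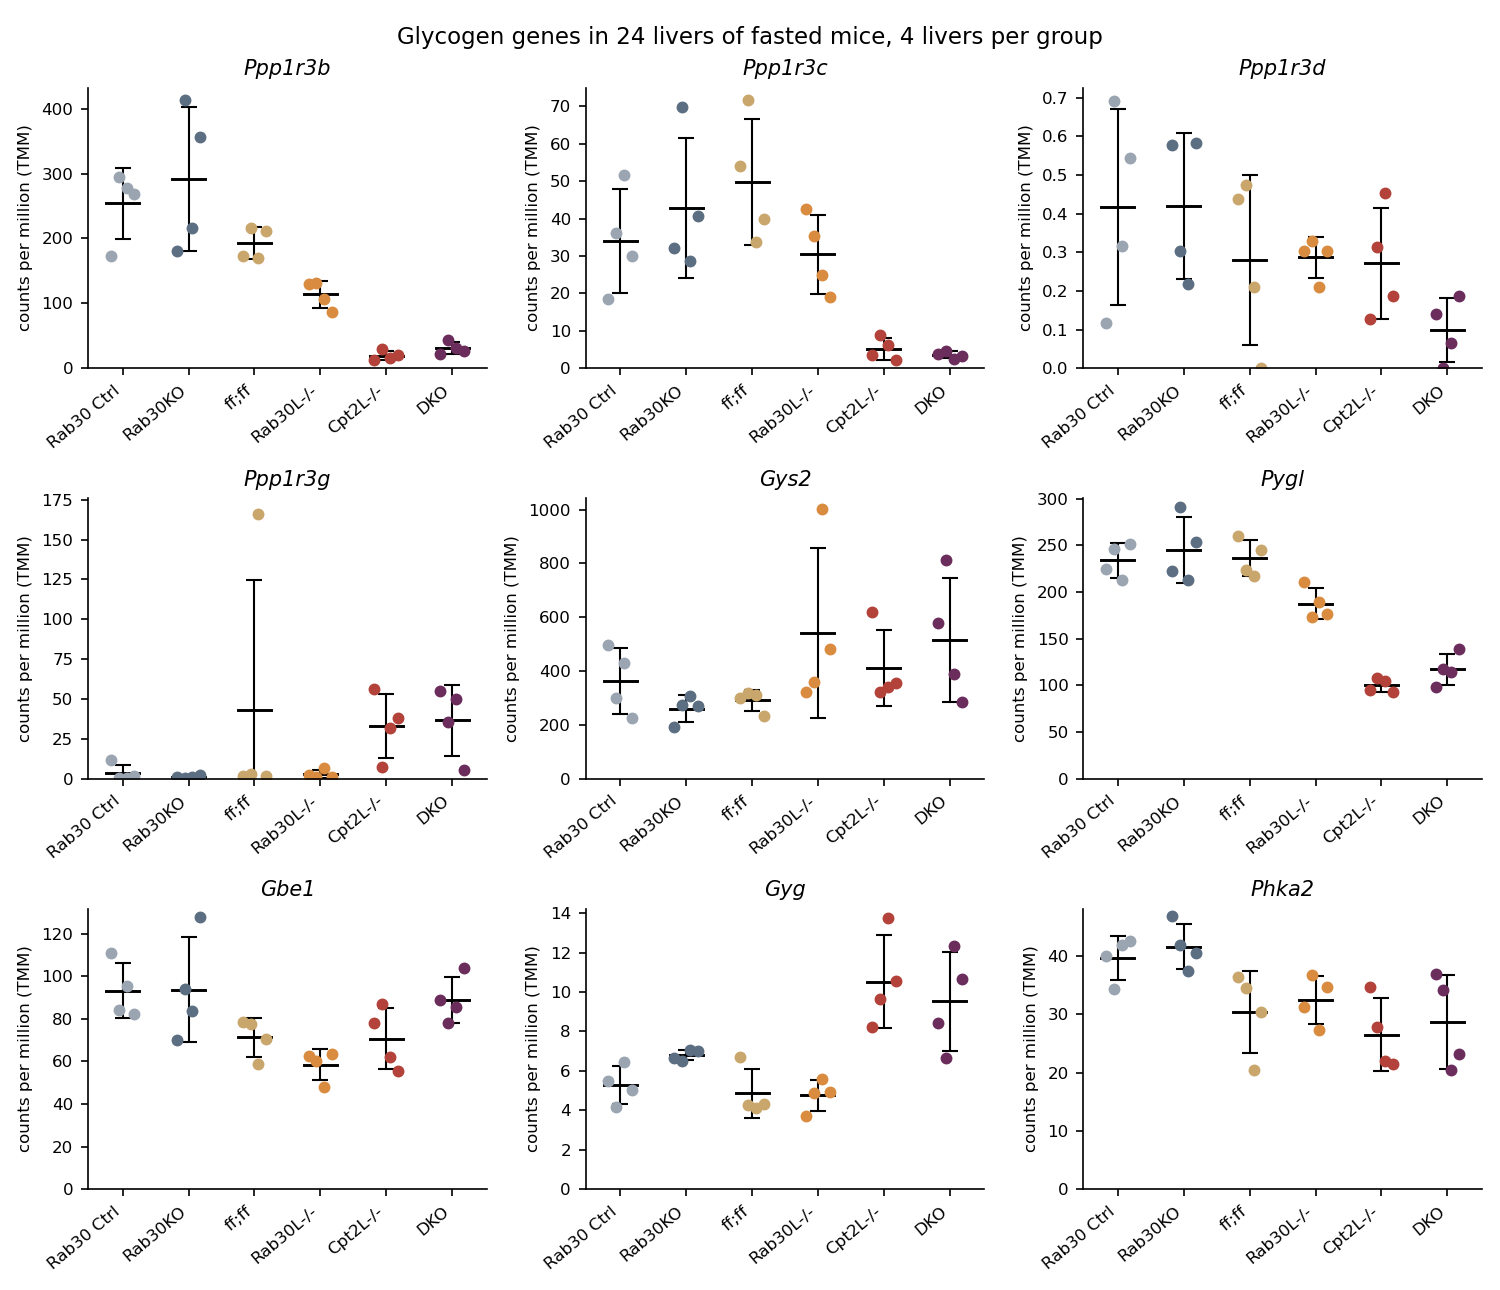
Each panel shows 1 gene, with CPM after TMM scaling on the vertical axis (linear, from 0) and the 6 groups on the horizontal axis; points are livers, the horizontal line is the mean and the bar is 1 SD (n = 4). The Cpt2L-/- and DKO points of Ppp1r3b, Ppp1r3c and Pygl lie below those of the other 4 groups, and for Ppp1r3g a single ff;ff liver stands at 166 CPM.

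Ppp1r3b (ENSMUSG00000046794, GRCm38 chr8:35375739-35388139, plus strand) was at 172, 215, 170 and 212 CPM in the 4 ff;ff livers. In Rab30L-/- livers it was at 131, 131, 107 and 87.0 CPM, and in Cpt2L-/- livers at 13.2, 29.1, 15.8 and 19.7 CPM. All Rab30L-/- livers were below all ff;ff livers, and all Cpt2L-/- livers were far below both groups. The log2 fold change of Cpt2L-/- against ff;ff was -3.32 (SE 0.23), with an edgeR adjusted p of 1.84e-06. Against Rab30L-/- livers, a comparison that holds no ff;ff or DKO library, it was -2.55 (SE 0.24, edgeR adjusted p = 2.86e-05). Rab30L-/- against ff;ff gave -0.76 (SE 0.17), which was not called by edgeR (adjusted p = 0.0860). DESeq2 called it with an adjusted p of 0.00211, as did limma-voom with 0.0187 and the edgeR fit without a filter on low counts with 0.00737. In the whole-body line, Ppp1r3b was at 180, 413, 216 and 356 CPM in Rab30KO and at 173, 295, 278 and 269 CPM in Rab30 Ctrl livers, ranges that overlap (log2 fold change 0.20, SE 0.27, edgeR adjusted p = 0.9999).

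Ppp1r3c (ENSMUSG00000067279, chr19:36731737-36736653, minus strand) had lower counts but followed a like course. It was at 54.0, 71.5, 33.8 and 39.9 CPM in ff;ff livers and at 42.4, 35.2, 24.99 and 19.0 CPM in Rab30L-/- livers, which overlap. In Cpt2L-/- livers it was at 3.52, 8.75, 6.28 and 2.19 CPM, below every liver of the other non-DKO groups. The log2 fold change was -3.28 (SE 0.41) against ff;ff, with an edgeR adjusted p of 3.53e-04, and -2.56 (SE 0.43) against Rab30L-/-, with an edgeR adjusted p of 0.00244. Rab30L-/- against ff;ff gave -0.72 (SE 0.29), with an edgeR adjusted p of 0.374. Rab30KO livers, at 28.6 to 69.7 CPM, overlapped Rab30 Ctrl livers, at 18.4 to 51.7 CPM.

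Ppp1r3g (ENSMUSG00000050423, chr13:35958839-35970388, plus strand) was higher in Cpt2L-/- than in Rab30L-/- livers, and 1 control liver decided the comparison with ff;ff. It was at 1.66, 2.66, 166 and 1.65 CPM in ff;ff livers, so that ff;ff liver 3 held 2379 counts where the other 3 held 19 to 45. In Rab30L-/- livers it was at 2.34, 1.24, 6.50 and 1.29 CPM, and in Cpt2L-/- livers at 56.0, 7.11, 31.7 and 38.0 CPM. No Cpt2L-/- liver overlapped the Rab30L-/- livers, and the log2 fold change between them was 3.44 (SE 0.79, edgeR adjusted p = 0.0161). In a fit of all 24 libraries it was no longer called, with a log2 fold change of 3.45 and an adjusted p of 0.0715. Against ff;ff the log2 fold change of Cpt2L-/- was -0.39 (SE 1.65, edgeR adjusted p = 0.896), and without ff;ff liver 3 it was 4.03 (edgeR adjusted p = 0.0116). Limma-voom, which weights libraries by quality, gave 2.79 with all 8 livers (adjusted p = 0.0461). Rab30KO livers held 0.455 to 2.07 CPM, while Rab30 Ctrl livers were at 11.4, 0.593, 0.569 and 1.90 CPM. The non-coding gene Gm30127, on the opposite strand within the span of Ppp1r3g, shared none of its exon bases and reached at most 8.13 CPM, in DKO liver 3; whether the counting used strand is not given in the sources used here.

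Ppp1r3d (ENSMUSG00000049999, chr2:178411206-178414472, minus strand) was barely measured, at 0 to 14 counts per library. Its levels did not exceed 0.692 CPM in any liver, and no change can be read from such counts.

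Of the genes of synthesis, Gyg was called in both Cpt2L-/- comparisons, and Gys2 and Gbe1 in neither. Gys2 (ENSMUSG00000030244, chr6:142422613-142473109, minus strand) was at 301, 317, 311 and 234 CPM in ff;ff, at 323, 358, 1003 and 481 in Rab30L-/- and at 621, 324, 341 and 354 in Cpt2L-/- livers. Rab30L-/- liver 3 and Cpt2L-/- liver 1 stand above the rest of their groups, and in both groups all livers lie above all ff;ff livers. Neither difference was called by edgeR: the log2 fold change was 0.88 (SE 0.32, adjusted p = 0.324) for Rab30L-/- and 0.48 (SE 0.22, adjusted p = 0.125) for Cpt2L-/-. The edgeR fit without a filter on low counts gave the latter an adjusted p of 0.0425. Without Rab30L-/- liver 3 the first value was 0.42, and without Cpt2L-/- liver 1 the second was 0.20. Gys2 in Rab30KO livers, at 192 to 309 CPM, overlapped Rab30 Ctrl livers at 227 to 497 CPM.

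Gyg (ENSMUSG00000019528, chr3:20122084-20155317, minus strand) was at 6.73, 4.26, 4.11 and 4.32 CPM in ff;ff, at 3.70, 4.87, 5.58 and 4.93 in Rab30L-/- and at 8.20, 9.63, 13.7 and 10.6 in Cpt2L-/- livers. Every Cpt2L-/- liver was above every ff;ff and Rab30L-/- liver. The log2 fold change of Cpt2L-/- was 1.11 (SE 0.23) against ff;ff, with an edgeR adjusted p of 0.00325. Against Rab30L-/- it was 1.13 (SE 0.20), with an edgeR adjusted p of 0.00105. In the whole-body line, Gyg was at 6.52 to 7.08 CPM in Rab30KO livers, above all Rab30 Ctrl livers at 4.15 to 6.45 CPM. That difference was not called (log2 fold change 0.36, SE 0.22, edgeR adjusted p = 0.9999). Gbe1 (ENSMUSG00000022707, chr16:70313949-70569716, plus strand) was at 58.7 to 78.4 CPM in ff;ff and 55.6 to 87.0 CPM in Cpt2L-/- livers, ranges that overlap.

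On the side of breakdown, Pygl (ENSMUSG00000021069, chr12:70190811-70231488, minus strand) varied little within groups. It was at 260, 224, 217 and 245 CPM in ff;ff, at 211, 174, 189 and 177 in Rab30L-/- and at 94.8, 108, 105 and 93.2 in Cpt2L-/- livers. The 3 groups did not overlap with each other. The log2 fold change of Cpt2L-/- was -1.25 (SE 0.13, edgeR adjusted p = 2.64e-05) against ff;ff and -0.91 (SE 0.12, edgeR adjusted p = 1.20e-04) against Rab30L-/-. Rab30L-/- against ff;ff gave -0.34 (SE 0.14, edgeR adjusted p = 0.367). Phka2 (ENSMUSG00000031295, chrX:160502166-160598878, plus strand) was at 20.5 to 36.3 CPM in ff;ff and at 21.4 to 34.8 CPM in Cpt2L-/- livers and was not called. Leaving out Cpt2L-/- liver 1 brought it to -0.46 against Rab30L-/- with an edgeR adjusted p of 0.0484.

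Counted over the members, 4 of 8 were called in Cpt2L-/- against ff;ff (3 lower, 1 higher), where 23.8% of all genes tested were called. In Cpt2L-/- against Rab30L-/-, 5 of 8 were called (3 lower, 2 higher), where 31.4% of all genes were called. The median log2 fold change of the members was -0.30 and -0.35 in these comparisons, beside -0.0035 and 0.0028 over all genes tested. Ppp1r3b and Ppp1r3c, both among the called, were chosen for low values in DKO livers, which carry the same Cpt2 deletion and are littermates of the ff;ff livers, so nothing is read from these counts against the share over all genes. The comparisons share the Cpt2L-/- livers and are not independent.

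**Figure D2:**
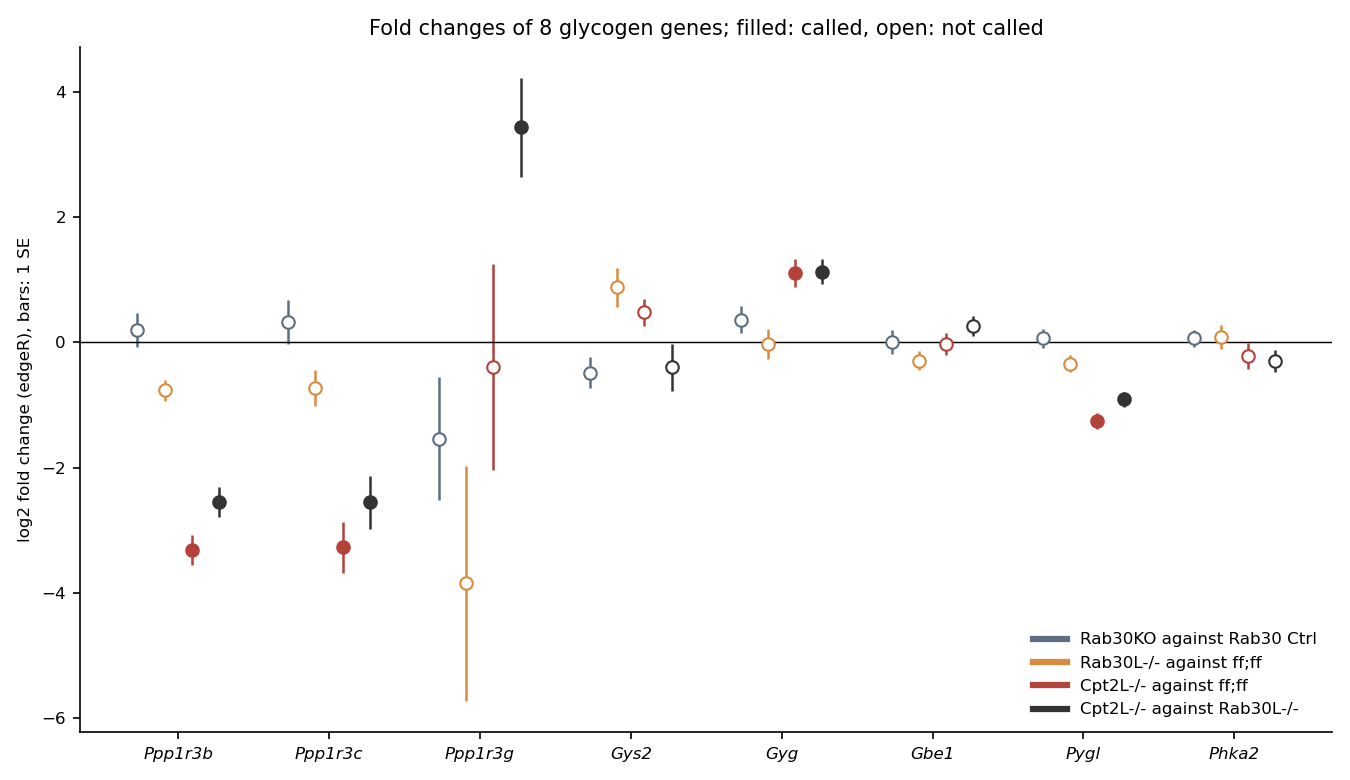
The vertical axis gives edgeR log2 fold changes of the 8 tested members (horizontal axis), with bars of 1 SE, in 4 comparisons given by colour; filled points were called and open points were not. Ppp1r3b, Ppp1r3c and Pygl are filled and below 0 in both Cpt2L-/- comparisons, Gyg is filled and above 0 in both, and Ppp1r3g is filled at 3.44 only against Rab30L-/-.

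By edgeR after the filter on low counts, loss of Rab30 alone called no member in either line. In Rab30KO against Rab30 Ctrl, 0 of 8 members were called by edgeR, DESeq2 or limma-voom, where these called 0.022%, 0.0732% and 0.00732% of all genes. At an unadjusted edgeR p under 0.05 and the same fold there were 0 members, beside 2.21% of all genes. In Rab30L-/- against ff;ff, 0 of 8 were called by edgeR and 1 each by DESeq2 and limma-voom, in both cases Ppp1r3b, where edgeR called 0.479%, DESeq2 2.23% and limma-voom 1.79% of all genes. At an unadjusted edgeR p under 0.05 there were 4 (Ppp1r3b, Ppp1r3c, Pygl and Gys2), beside 11.2% of all genes. Ppp1r3b and Ppp1r3c were chosen for low values in DKO livers, whose littermates are these ff;ff livers. Nothing is therefore read from these 4, or from the 4 in the effect difference that follows, against the share over all genes. The difference between the Rab30L-/- and Rab30KO effects, fitted over 16 libraries, called 0 of 8 members by edgeR, DESeq2 or limma-voom, where these called 0.021%, 0.412% and 0.0419% of all genes, and 4 had an unadjusted edgeR p under 0.05, beside 7.68% of all genes. For Ppp1r3b that difference was -0.98 (SE 0.34, edgeR adjusted p = 0.507) and for Gys2 it was 1.34 (SE 0.44, edgeR adjusted p = 0.482). The control groups themselves, ff;ff against Rab30 Ctrl, gave 0 of 8 members called by edgeR, DESeq2 or limma-voom, where these called 0.949%, 4.16% and 2.3% of all genes, with 1 member, Gbe1, at an unadjusted edgeR p under 0.05 (log2 fold change -0.36, SE 0.16), near the 13.2% of all genes at that threshold.

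In DKO livers, whose values helped to choose the members, Ppp1r3b was at 22.6, 44.0, 30.4 and 26.6 CPM and Ppp1r3c at 3.77, 4.65, 2.47 and 3.33 CPM. Both lie below all ff;ff and Rab30L-/- livers and overlap the Cpt2L-/- livers. The log2 fold change against ff;ff was -2.65 (SE 0.21) for Ppp1r3b and -3.82 (SE 0.27) for Ppp1r3c, and against Cpt2L-/- it was 0.67 (SE 0.27) and -0.54 (SE 0.38). Ppp1r3g was at 55.2, 35.4, 50.02 and 5.44 CPM, so that DKO liver 4 was low as Cpt2L-/- liver 2 was. Pygl was at 98.3, 117, 115 and 139 CPM and Gyg at 8.45, 6.65, 12.4 and 10.6 CPM. Gys2 was widely spread, at 579, 811, 388 and 285 CPM. Gbe1, at 78.2 to 104 CPM, was higher than in all Rab30L-/- livers (47.8 to 63.5 CPM).

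The log2 fold change of Ppp1r3b was -0.76 for Rab30L-/- against ff;ff, which edgeR did not call, and 0.67 for DKO against Cpt2L-/-, whose ranges overlap. The second value less the first was 1.44 (SE 0.33) on the log2 scale for Ppp1r3b, 0.58 (SE 0.17) for Pygl and 0.18 (SE 0.53) for Ppp1r3c. It was 0.63 (SE 0.22) for Gbe1, 0.04 (SE 0.30) for Phka2 and 3.98 (SE 1.97) for Ppp1r3g, with ff;ff liver 3 included. For Gys2 and Gyg it was below 0, at -0.54 (SE 0.50) and -0.11 (SE 0.32). These values are a description with no test.

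Per length, the make-up of the targeting subunits differed between groups. In FPKM, which divides counts by gene length, Ppp1r3b was the highest of the 4 Ppp1r3 members in all 4 livers of Rab30 Ctrl, Rab30KO and Rab30L-/-, and in 3 of 4 ff;ff livers. Ppp1r3g was the highest in 3 of 4 Cpt2L-/- livers, in 3 of 4 DKO livers and in ff;ff liver 3. Its share of the summed FPKM of the 4 genes was 85.7, 24.8, 70.2 and 77.7% in Cpt2L-/- livers and 80.2, 59.9, 76.1 and 26.6% in DKO livers. In Rab30L-/- livers the share was 1.33 to 8.34%, and in Rab30 Ctrl livers 0.330 to 10.9%. The ff;ff livers were at 1.24 to 1.59% apart from liver 3, at 60.7%. The summed FPKM itself was 21.9 to 38.3 in Rab30L-/- and 10.8 to 24.6 in Cpt2L-/- livers, which overlap, and 49.1 to 104 in ff;ff. These shares are given as a description with no test.

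**Figure D3:**
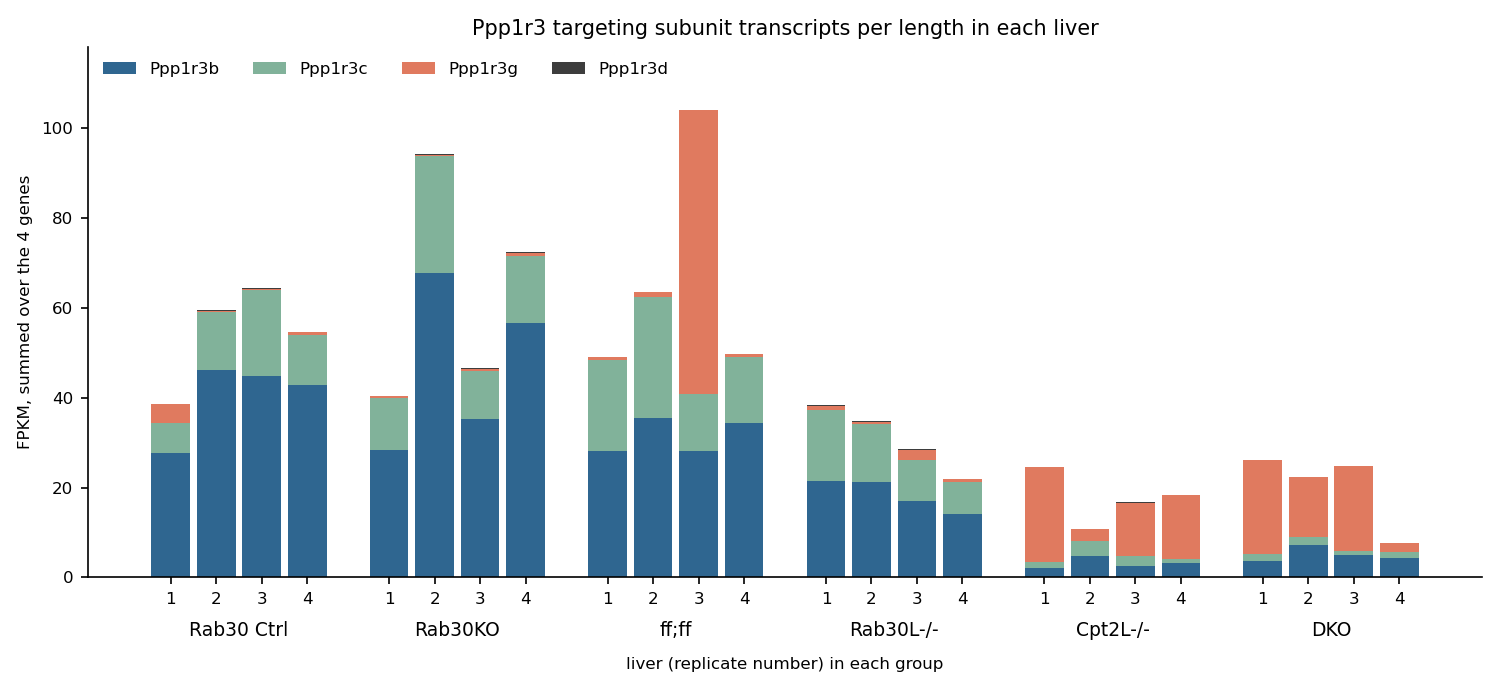
Each bar is 1 liver, grouped by genotype, and its height is the summed FPKM of Ppp1r3b, Ppp1r3c, Ppp1r3g and Ppp1r3d (linear axis from 0). Ppp1r3g makes up most of the bar in 3 of 4 Cpt2L-/- livers, 3 of 4 DKO livers and ff;ff liver 3, and Ppp1r3b does so in most other livers.

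Among all members, Gys2 had the highest level per length in every group. In ff;ff livers it was at 111 ± 15.5 FPKM (SD, n = 4), followed by Pygl at 34.9 ± 2.71 and Ppp1r3b at 31.5 ± 3.94, whose ranges overlap. Ppp1r3c was next at 18.7 ± 6.35 and overlapped Gbe1 at 13.6 ± 1.72. Ppp1r3g has a mean of 16.3 ± 31.2 there but a median of 0.818, below Phka2 at 5.10 ± 1.18 and Gyg at 2.11 ± 0.540. In Cpt2L-/- livers Gys2 was at 156 ± 54.4 FPKM, Pygl at 14.7 ± 1.10, Gbe1 at 13.4 ± 2.82, Ppp1r3g at 12.4 ± 7.62 and Gyg at 4.54 ± 0.968. There Phka2 was at 4.42 ± 1.07, Ppp1r3b at 3.17 ± 1.15 and Ppp1r3c at 1.93 ± 1.10, and neighbours in this order overlap except Gys2 and Pygl. The ratio of Gys2 to Pygl in FPKM was 2.48 to 3.72 in ff;ff, 3.97 to 13.8 in Rab30L-/-, 7.76 to 17.0 in Cpt2L-/- and 5.34 to 17.9 in DKO livers. In the whole-body line it was 2.34 to 5.74 in Rab30 Ctrl and 2.23 to 3.76 in Rab30KO livers.

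Promoters are shown for the called members that RefSeq's promoter table (GRCm38.p6) holds, since these genes moved in both directions. Of the 9 members 7 matched, and Ppp1r3b and Gys2 did not. Each sequence runs 5′ to 3′ along the gene's strand, from 250 bases before RefSeq's transcription start to 50 bases after its first base, and RefSeq's start can lie inside the span given in the count table. Capitals mark matches, on either strand, to the motifs searched: the cAMP response element TGACGTCA, its core TGACG, the E-box CACGTG, the nuclear receptor motif AGGTCA and the forkhead motif TGTTTAC.
Ppp1r3c, chr19:36736555-36736854, minus strand: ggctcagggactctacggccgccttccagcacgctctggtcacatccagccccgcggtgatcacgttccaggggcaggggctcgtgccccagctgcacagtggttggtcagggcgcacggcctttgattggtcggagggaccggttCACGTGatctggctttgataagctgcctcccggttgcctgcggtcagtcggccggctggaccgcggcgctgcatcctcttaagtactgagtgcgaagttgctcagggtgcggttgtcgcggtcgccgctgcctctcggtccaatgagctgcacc
Ppp1r3g, chr13:35967656-35967955, plus strand: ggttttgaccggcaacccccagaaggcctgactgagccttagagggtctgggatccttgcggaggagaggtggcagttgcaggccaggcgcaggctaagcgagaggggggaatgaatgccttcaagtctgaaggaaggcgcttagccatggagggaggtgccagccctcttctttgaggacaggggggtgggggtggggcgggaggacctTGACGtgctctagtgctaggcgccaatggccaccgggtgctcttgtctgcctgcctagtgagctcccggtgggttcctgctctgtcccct
Pygl, chr12:70227634-70227933, minus strand: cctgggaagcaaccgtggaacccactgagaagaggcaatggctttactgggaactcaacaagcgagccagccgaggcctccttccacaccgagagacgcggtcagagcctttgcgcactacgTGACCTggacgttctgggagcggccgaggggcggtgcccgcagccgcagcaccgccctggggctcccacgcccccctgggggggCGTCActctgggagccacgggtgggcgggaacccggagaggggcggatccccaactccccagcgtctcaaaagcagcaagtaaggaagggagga
Gyg, chr3:20155067-20155366, minus strand: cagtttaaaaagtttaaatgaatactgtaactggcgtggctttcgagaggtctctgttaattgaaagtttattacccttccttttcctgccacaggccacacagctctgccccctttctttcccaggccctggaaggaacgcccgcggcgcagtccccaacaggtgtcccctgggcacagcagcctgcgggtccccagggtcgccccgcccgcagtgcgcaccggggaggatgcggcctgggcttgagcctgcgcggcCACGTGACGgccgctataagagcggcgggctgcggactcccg

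Ppp1r3c holds an E-box at -104 from the start, and Ppp1r3g holds the core TGACG at -40. Pygl holds the core at -44 and the nuclear receptor motif at -128, both on the opposite strand, so that the printed strand reads CGTCA and TGACCT there. Gyg holds an E-box at 9 and the core at 13 after the start, which overlap by 2 letters. The core lies in 21.0% of 27025 promoters of the same length, the E-box in 7.24%, the nuclear receptor motif in 16.04%, the forkhead motif in 3.55% and the complete cAMP response element in 1.88%. None of the 4 windows holds the letters of the forkhead motif or of the complete cAMP response element. A match is a run of letters and no evidence of binding.

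The genes whose pattern was most like that of each targeting subunit were sought by Pearson's r of log2 CPM over the 24 livers, among 12639 protein-coding genes; livers of the same group are not independent points. For Ppp1r3b they were Pygl (r = 0.97), Pipox (0.97), a peroxisomal enzyme of amino acid oxidation, and Pik3r1 (0.96), the regulatory subunit of phosphoinositide 3-kinase. For Ppp1r3c they were Haao (0.94), an enzyme of tryptophan breakdown, Spata2l (0.94) and Gckr (0.94). For Ppp1r3g they were Igfbp1 (0.89), an insulin-like growth factor binding protein secreted by the liver, Reps1 (0.87) and Lpin2 (0.86), a phosphatidate phosphatase. Ranked by Spearman's rho, Igfbp1 stayed the most like Ppp1r3g (rho = 0.92) and Pik3r1 became the most like Ppp1r3b (rho = 0.94). Ndufs8 took that place for Ppp1r3c (rho = 0.91). By rho, Pygl ranked 15 and Pipox 7 for Ppp1r3b, and Haao and Gckr ranked 70 and Spata2l 3 for Ppp1r3c. For Ppp1r3g, Reps1 ranked 54 and Lpin2 49. Igfbp1 was at 3673 CPM in ff;ff liver 3 and at 205, 346 and 116 CPM in the other ff;ff livers. It was at 435 to 662 CPM in Cpt2L-/- and at 81.98 to 364 CPM in Rab30L-/- livers.

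**Figure D4:**
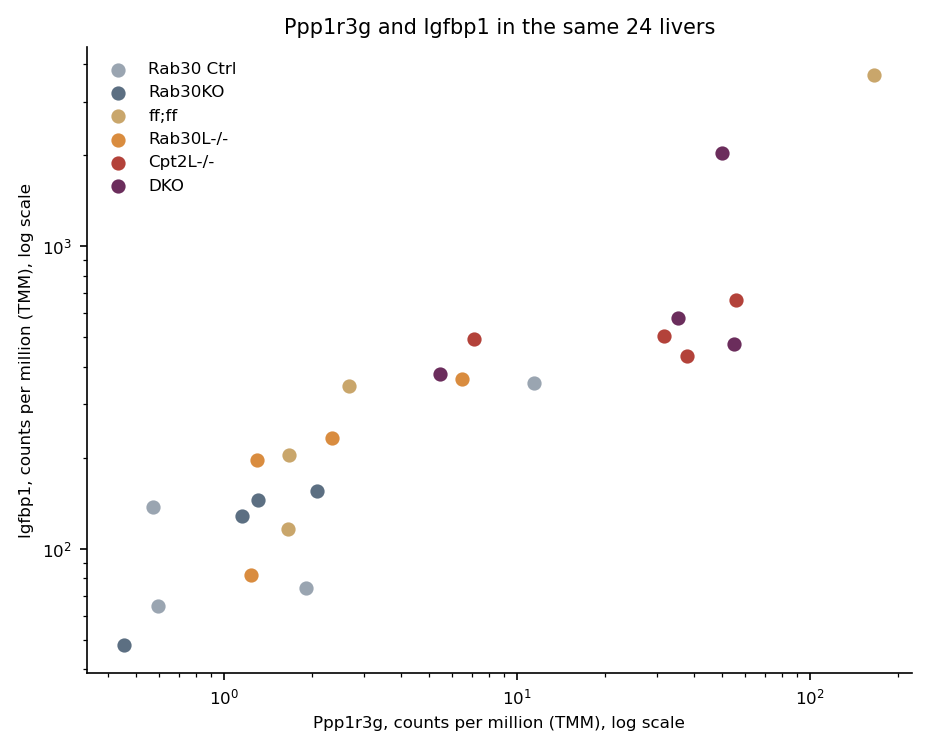
Each point is 1 of 24 livers, with CPM of Ppp1r3g on the horizontal and of Igfbp1 on the vertical axis (both log scales), coloured by group. The liver at the upper right is ff;ff liver 3, at 166 and 3673 CPM, apart from the other ff;ff livers.

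A list of 31 other genes of glycogen and glucose handling was followed in the same fits. In Cpt2L-/- against ff;ff, 29 were tested, 2 were called higher and 5 lower, a share near the 23.8% called over all genes, and the median log2 fold change was -0.04. In Cpt2L-/- against Rab30L-/-, 4 of 29 were called higher and 7 lower, where 31.4% of all genes were called, with a median of -0.06. G6pc, the glucose-6-phosphatase that releases free glucose, had a log2 fold change of -2.76 (SE 0.26) against ff;ff, with an edgeR adjusted p of 1.58e-05. Its transporter partner Slc37a4 was at -1.24 (SE 0.18) and Gckr at -1.47 (SE 0.13). Nhlrc1, which encodes malin, was at -1.47 (SE 0.35). Pgm1, the gene of that symbol on chromosome 5, was higher, at 1.33 (SE 0.22). Stbd1, a glycogen-binding protein, was higher too, at 0.78 (SE 0.17). Its levels in Cpt2L-/- livers, 59.2 to 87.8 CPM, lay within the 49.9 to 106 CPM of Rab30 Ctrl livers. All 6 genes named from the list so far passed the test against ff;ff. Phkg2, another gene of phosphorylase kinase, was also called lower, at -0.57 (SE 0.14, edgeR adjusted p = 0.00958). Against Rab30L-/- livers Phkg2 was at -0.55 (SE 0.12, edgeR adjusted p = 0.00427). Against Rab30L-/- livers the called genes with the largest changes were Pgm1 (1.56), G6pc (-1.48), Gckr (-1.39), Slc37a4 (-1.11), Gys1 (-0.92), the synthase of muscle and other tissues, and Stbd1 (0.81). Pgm2, on chromosome 4, was called in neither comparison (log2 fold changes -0.06 and 0.03) and was at 257 to 265 CPM in Cpt2L-/- livers. Pgm1 was at 9.48 to 12.7 CPM there, and its symbol alone does not tell its part in glycogen metabolism. None of the 3 catalytic subunits of protein phosphatase 1 (Ppp1ca, Ppp1cb and Ppp1cc) was called in either comparison. Of the other targeting subunits, Ppp1r3e had log2 fold changes of 0.41 (SE 0.28) and 0.62 (SE 0.27) and was not called, and Ppp1r3a and Ppp1r3f were too low to be tested.

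In Rab30L-/- against ff;ff, G6pc was the only list member called of 29 tested, at -1.28 (SE 0.24, edgeR adjusted p = 0.0423), where 0.479% of all genes were called. No list member was called in Rab30KO against Rab30 Ctrl, where 28 were tested.

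**Figure D5:**
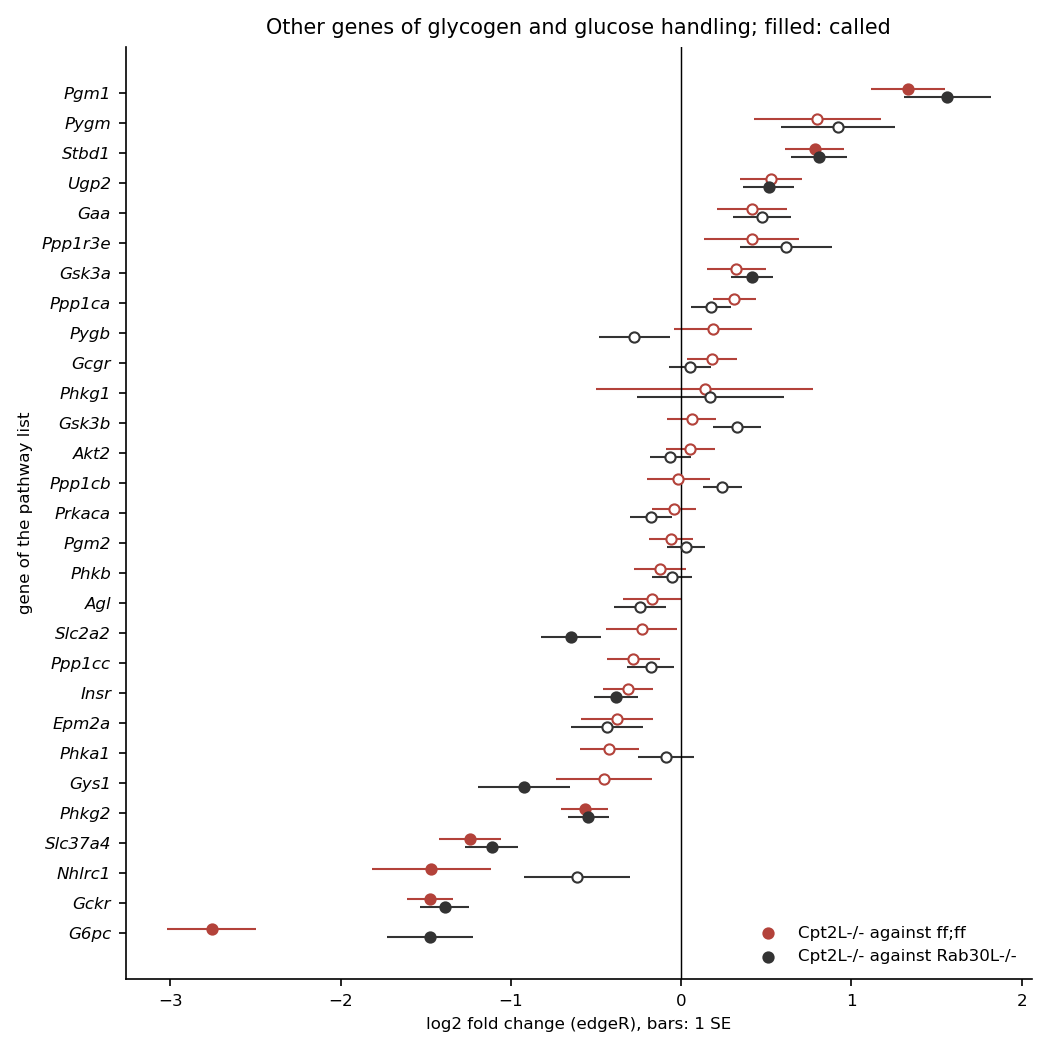
Each row is 1 of 29 tested genes of the list, the horizontal axis gives edgeR log2 fold changes with bars of 1 SE, and colours give the comparisons of Cpt2L-/- with ff;ff and with Rab30L-/-; filled points were called. G6pc, Gckr, Slc37a4 and Phkg2 are filled and below 0 in both comparisons, and Pgm1 and Stbd1 are filled and above 0 in both.

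Markers of cell types moved with the Cpt2L-/- comparisons. The summed level of 5 hepatocyte markers was 42615 to 51159 CPM in Cpt2L-/- livers, 72445 to 86537 in Rab30L-/- and 87550 to 115896 in ff;ff livers. Of these 5, 2 were called lower against ff;ff, among them Alb at -1.41 (SE 0.19), beside -1.25 for Pygl. The sum of 6 Kupffer cell markers was 105 to 159 CPM in Cpt2L-/-, 129 to 244 in ff;ff and 177 to 530 in Rab30L-/- livers, with 3 called lower against ff;ff and 5 against Rab30L-/-. That of 4 bile duct markers was 1.92 to 4.03 CPM in Cpt2L-/- and 6.22 to 11.2 CPM in ff;ff livers, and that of 4 haemoglobin genes was 66.8 to 141 and 177 to 584 CPM, beside 221 to 586 CPM in Rab30L-/- livers. The haemoglobin genes did not all go one way: 3 of 4 were called lower against ff;ff, and against Rab30L-/- 3 were called lower and Hba-a2 higher, at 2.82 (SE 0.80, edgeR adjusted p = 0.0247). Of 5 markers of sinusoidal endothelium, 1 was called lower against ff;ff and 0 against Rab30L-/-. None of 6 stellate cell markers was called in either comparison. The part of these shifts in the changes of the glycogen genes was not tested.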

How the data were processed

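Liver RNA of 24 mice was measured by bulk RNA-seq. Novogene prepared and sequenced the libraries for the authors. The submitters' processing notes name HISAT2, DESeq2 and the builds GRCm38 and mm10, while the counter, the annotation and the use of strand are not given in the sources used here. In the count table as deposited each value is a whole number of reads for a gene, not normalized. FPKM values deposited by the authors form another table, in which the counts are divided by gene length and by a library size between 0.851 and 1.14 times the total count of that library. A table of normalized counts and 5 tables of the authors' own fold changes, p-values and adjusted p-values were not used.

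The 9 members, the pathway and marker lists and the comparisons were chosen with earlier results of these data known. Counts were filtered (filterByExpr), scaled by TMM and fitted with edgeR 4.0.16 (R 4.3.3) by the quasi-likelihood test with robust dispersion, over the groups of each comparison. Adjustment was by Benjamini-Hochberg over all genes tested, and the SE of a log2 fold change was taken from the F statistic. CPM values are TMM-scaled over all 24 libraries. The text names all members, the targeted genes and genes that overlap a member. Of the pathway list it names up to 6 called genes in each comparison by size of change, and Phkg2 and Pgm2 besides. It also names the 3 protein-coding genes most like Ppp1r3b, Ppp1r3c and Ppp1r3g (log2 of CPM plus 0.5). Alternatives were DESeq2 1.42.0, limma 3.58.1 (voom with quality weights, and log2 of FPKM plus 1), DESeq2 size factors, a fit over all libraries, other filters, no fold threshold and each library left out. Apart from the 31 genes of the pathway list that are reported, 1 more gene chosen for it is not reported here. The fits were tested on simulated data. No 2 libraries of a group agreed within sampling noise (chi-square per degree of freedom of at least 13.4 in 36 pairs). Replicates are separate mice according to the methods, and replicate numbers follow accession order, so they pair nothing.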

Additional observations from a re-analysis of the deposited data

Results flagged for a closer look

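Among 48 sets of 4 livers (8 members in 6 groups), 4 held a liver that stood apart from the others by Dixon's test, where chance marks about 1 in 20 sets. For Ppp1r3g these were ff;ff liver 3, at 166 CPM where the other ff;ff livers were at 1.65 to 2.66 CPM, and Rab30 Ctrl liver 1, at 11.4 CPM where the others were at 0.569 to 1.90 CPM. Gys2 was at 621 CPM in Cpt2L-/- liver 1 and at 324 to 354 CPM in the others. Gyg was at 6.73 CPM in ff;ff liver 1 and at 4.11 to 4.32 CPM in the others.

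For 3 members the livers of one contrast all moved one way and those of another contrast all moved the other way. The share of all genes with such a pattern is not given here, so nothing is read from this count. Gys2 was higher in every Rab30L-/- liver than the ff;ff mean and lower in every Rab30KO liver than the Rab30 Ctrl mean, on the log2 scale. The difference between those effects was 1.34 on the log2 scale and did not pass edgeR's test (adjusted p = 0.482). Ppp1r3b and Gbe1 were lower in every Rab30L-/- liver than the ff;ff mean and higher in every DKO liver than the Cpt2L-/- mean. The differences were 1.44 and 0.63 on the log2 scale, and they were not tested, since DKO values helped to choose the members.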

How the results depend on the processing

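Of 845 refits of a member's change in a tested comparison, 797 kept their direction and their side of the threshold. Ppp1r3b, Ppp1r3c, Pygl and Gyg were called in both Cpt2L-/- comparisons under every alternative run. The number of members called rose from 0 to 1 in Rab30L-/- against ff;ff with DESeq2, limma-voom and no filter on low counts (Ppp1r3b each time), where the share of all genes called went from 0.479% to 2.23, 1.79 and 0.923%. The cause was not tested. A fit over all libraries lost Ppp1r3g in Cpt2L-/- against Rab30L-/-, with an adjusted p of 0.0715.

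Apart from the fits with 1 library left out, directions turned for changes near 0 and for Ppp1r3g. Gbe1 in Rab30KO gave -0.011 with limma-voom, -0.00078 without a filter and -0.00076 on log2 FPKM. Gyg in Rab30L-/- gave 0.12 with limma-voom. Phka2 in the Rab30L-/- effect less the Rab30KO effect gave 0.022 over all libraries, 0.0045 without a filter, 0.016 with at least 10 counts in every library and 0.0076 on log2 FPKM. Ppp1r3g in Cpt2L-/- against ff;ff gave 2.79 with limma-voom and 1.39 on log2 FPKM. Leaving out ff;ff liver 3 and Rab30L-/- liver 3 together, chosen after seeing the data, turned Ppp1r3g in the effect difference to 1.21.

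With 1 library left out, Ppp1r3g ranged from -0.79 to 4.03 in Cpt2L-/- against ff;ff, from -4.71 to 0.52 in Rab30L-/- against ff;ff, from -0.82 to 5.45 in ff;ff against Rab30 Ctrl, from -4.22 to 2.03 in the effect difference and from -1.93 to 0.31 in Rab30KO. Each of the first 4 turned without ff;ff liver 3. In Rab30KO, Gbe1 ranged from -0.19 to 0.13, Phka2 from -0.0010 to 0.11, Ppp1r3b from -0.027 to 0.38, Ppp1r3c from -0.020 to 0.61 and Pygl from -0.035 to 0.13. Gbe1 in Cpt2L-/- against ff;ff ranged from -0.15 to 0.076, and Gys2 in Cpt2L-/- against Rab30L-/- from -0.68 to 0.068. In Rab30L-/-, Gyg ranged from -0.096 to 0.17 and Phka2 from -0.066 to 0.18. Phka2 in the effect difference ranged from -0.15 to 0.092. In ff;ff against Rab30 Ctrl, Gyg ranged from -0.29 to 0.011 and Pygl from -0.0059 to 0.081. The counts of members called ranged from 4 to 5 and from 5 to 6 in the Cpt2L-/- comparisons. Over all genes the calls against ff;ff ranged from 2352 of 13513 tested to 3459 of 13594. Against Rab30L-/- they ranged from 3199 of 13630 to 4286 of 13665. No paired analysis was possible because no label ties the animals of one group to those of another. Ppp1r3d, at 14 counts or fewer per library, is beyond this depth.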
